A study of Mus musculus with 8 samples.

Results

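The subject is 36 mouse genes of fatty acid and triglyceride synthesis, followed in mammary gland tissue after 17β-estradiol (E2), the main circulating estrogen. They were chosen by name from the enzymes and regulators of the pathway, with earlier results of these data known. Probe sets carrying the symbol were found for 34 of the 36 genes, out of 18193 genes with a probe set of their own, and G6pdx and Acsl1 were not analysed here. All 34 lay above the level below which genes were not tested (an intensity of 211), as did 10916 genes in all. Their shared direction is given as a description, beside that of all tested genes.

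The tissue was inguinal mammary gland of gonadectomized virgin mice, 12 to 13 weeks old. The labels used here name no strain and no number of mice per group. Gonadectomy removes the main source of circulating estrogen. A vehicle group was measured on 2 Affymetrix arrays, and 6 groups that received E2 under the skin 1, 3, 6, 12, 18 or 24 h before the tissue was taken were measured on 1 array each (8 arrays). All groups share the gonadectomy, and both vehicle arrays are labelled 24 h, so at 1 to 18 h the hormone, the injection and the time of day cannot be told apart. Times follow the sample titles, while the free-text description of every sample reads 24 h. The labels say that glands were taken from every mouse of a group, but not whether RNA on an array came from 1 mouse or was pooled. No label says that arrays are separate animals, so the p-values rest on differences among these 8 arrays alone, and that spread may be technical. The tests below group E2 times with 1 array each, so their spread also holds any change between the grouped times.

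Fat is made from sugar in the cytosol. Citrate leaves the mitochondrion, ATP citrate lyase splits it to acetyl-CoA, acetyl-CoA carboxylase makes malonyl-CoA, and fatty acid synthase joins these units into palmitate with electrons from NADPH. Elongases and desaturases then shape the chain, and acyltransferases place it on a glycerol backbone to give triglyceride. The transcription factors SREBP-1c, encoded by Srebf1, and ChREBP, encoded by Mlxipl, are known to raise these genes after feeding. In the mammary gland of a virgin mouse, adipocytes of the fat pad carry much of this pathway, and epithelial cells take it up for milk fat in lactation.

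Promoter sequence is shown for 4 members, to let the letters upstream of genes with related time courses be compared. Acss2 and Agpat2 passed the test given below, Mlxipl held the only sterol response motif among the measured members, and Fasn is the central enzyme. The sequences are RefSeq promoter windows of mouse assembly GRCm38.p6, cut to the 250 bases before the start and written 5′ to 3′ on the gene's strand. Capitals mark matches, on either strand, to TCACNCCAC (the sterol response element), CACGTG (the E-box bound by ChREBP and USF) and CCAAT (the NF-Y box). The Acss2 window lies at chr2:155517793-155518042 on the plus strand, that of Agpat2 at chr2:26604418-26604667 on the minus strand, the second Mlxipl window at chr5:135106641-135106890 on the plus strand, and that of Fasn at chr11:120824548-120824797 on the minus strand.
Acss2: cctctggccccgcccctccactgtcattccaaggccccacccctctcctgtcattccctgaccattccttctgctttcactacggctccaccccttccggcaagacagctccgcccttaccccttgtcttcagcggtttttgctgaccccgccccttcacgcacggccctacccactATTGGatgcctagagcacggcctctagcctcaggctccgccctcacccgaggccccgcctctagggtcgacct
Agpat2: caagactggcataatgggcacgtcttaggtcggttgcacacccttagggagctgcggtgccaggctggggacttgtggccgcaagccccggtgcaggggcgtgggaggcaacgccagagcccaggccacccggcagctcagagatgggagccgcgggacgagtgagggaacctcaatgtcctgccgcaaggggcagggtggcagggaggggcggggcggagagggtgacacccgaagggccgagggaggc
Mlxipl: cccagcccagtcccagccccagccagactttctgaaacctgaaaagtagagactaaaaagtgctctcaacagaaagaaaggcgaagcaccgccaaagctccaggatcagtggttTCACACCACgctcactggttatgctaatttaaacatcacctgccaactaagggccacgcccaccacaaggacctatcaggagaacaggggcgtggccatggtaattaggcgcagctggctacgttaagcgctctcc
Fasn: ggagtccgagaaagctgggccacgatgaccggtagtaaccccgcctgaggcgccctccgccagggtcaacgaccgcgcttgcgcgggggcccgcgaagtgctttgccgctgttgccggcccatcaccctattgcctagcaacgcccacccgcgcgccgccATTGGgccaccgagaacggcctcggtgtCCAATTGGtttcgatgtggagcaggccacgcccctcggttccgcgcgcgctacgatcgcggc
Acss2 held 1 CCAAT match and Fasn 3, of which 2 overlap, while Agpat2 held no match to any of the 3 motifs.

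Promoter windows were found for 30 of the 36 members, 39 windows in all, and for 27025 mouse genes. Scd1, Scd2, Gpd1, Fads1, Dgat1 and Dgat2 had none in the table. CCAAT stood in at least 1 window of 18 of the 30 members, against 37.49% of all genes, and GGGCGG, the GC box bound by Sp1, in 20 of 30 (66.7%), against 35.36%. CACGTG was found in 3 members, Slc25a1, Elovl5 and Mlxipl (against 6.86% of all genes), and TCACNCCAC in Acsl1 and Mlxipl (6.7% of members, against 1.22%). AGGTCA, the core of the estrogen response element, stood in 6 members (20.0%, against 15.76%). Among the 19 matched members whose late arrays all lay above their early arrays, 10 held CCAAT and 12 the GC box. Of the 11 other matched members, which include the unmeasured G6pdx and Acsl1, 8 held each. A match is a run of letters and not a measured binding site.

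Across the 34 measured members the levels were low at 3 and 6 h and high from 12 to 24 h. The median member lay 0.19 below the vehicle mean on the log2 scale at 3 h and 0.15 below it at 6 h, then 0.11, 0.16 and 0.13 above it at 12, 18 and 24 h, after -0.03 at 1 h. The lowest of the 8 arrays was the 3 h or the 6 h array for 27 members (22.6% of tested genes), the highest was a 12, 18 or 24 h array for 25 (33.8%), and both held for 21 (11.3%). All values below are log2 of the deposited intensity of the brightest probe set of each gene, so levels are compared between arrays for a gene and never between genes.

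**Figure D1:**
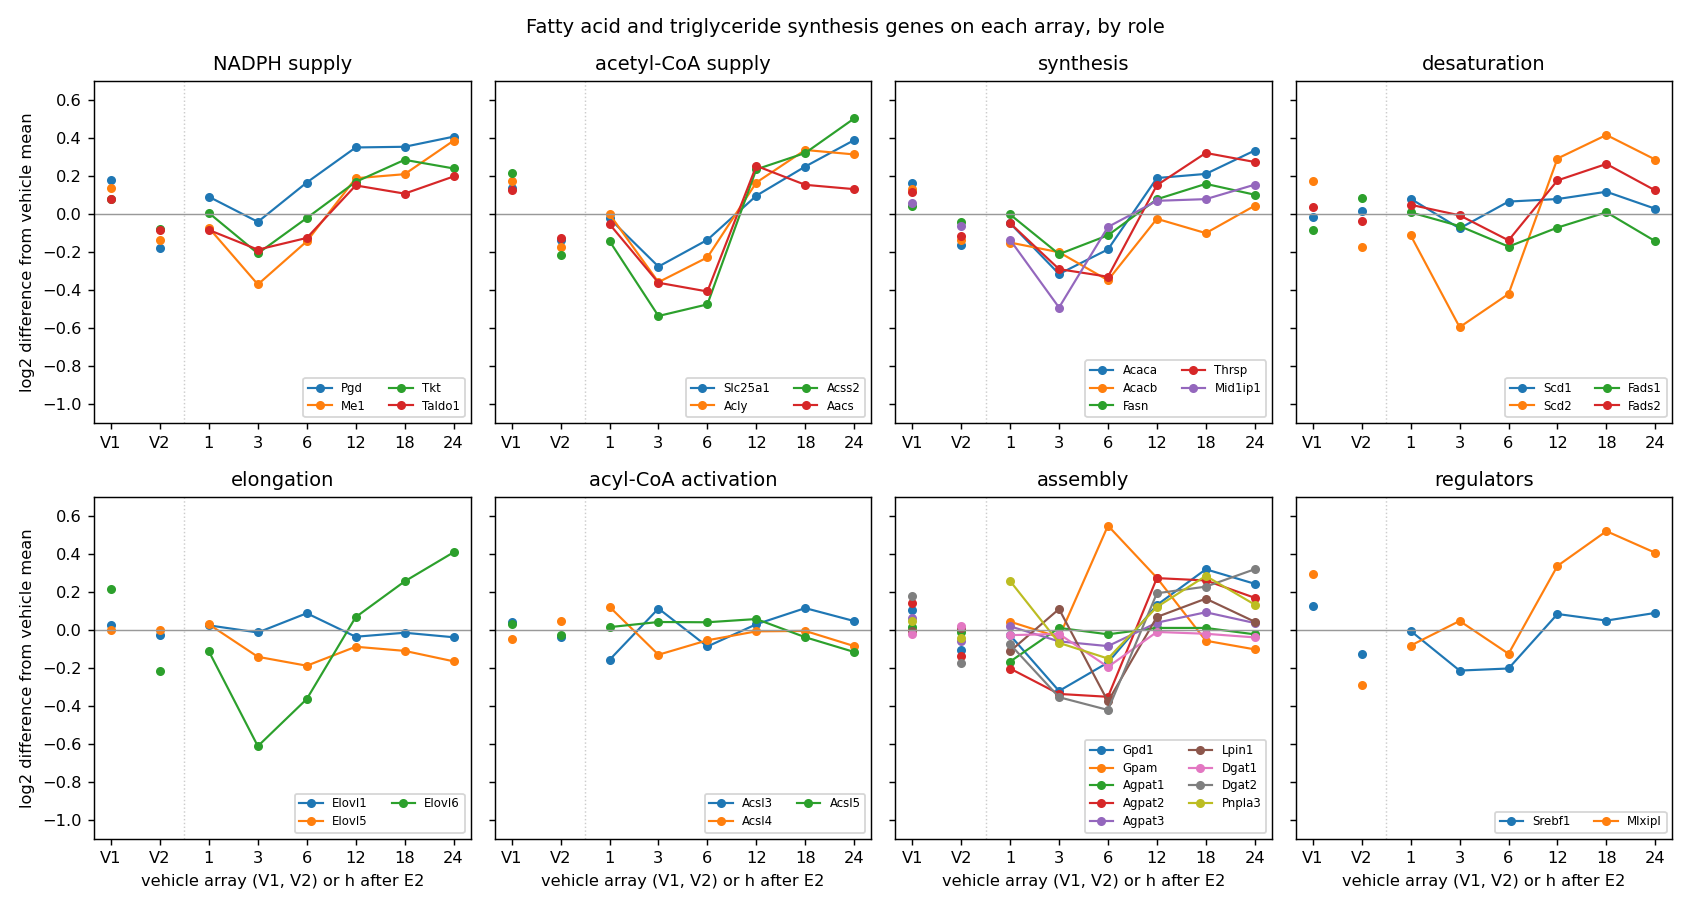
Log2 difference of each member from its vehicle mean (vertical axis) on the vehicle arrays V1 and V2 and on the E2 arrays by hour (evenly spaced), with 1 array per point and no error bar, in panels by role. Genes of NADPH supply, acetyl-CoA supply and synthesis mostly lie below 0 at 3 and 6 h and above 0 from 12 h, while the acyl-CoA activation genes stay between -0.16 and 0.12.

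The main comparison set the late window (12, 18 and 24 h, n = 3) against the early window (1, 3 and 6 h, n = 3), and the vehicle arrays do not enter its difference. Acss2, Scd2 and Agpat2 rose from the early to the late window, by 1.67-fold, 1.63-fold and 1.45-fold. They were the 3 of 34 members that passed limma's test at an adjusted p below 0.05, which 0.550% of all tested genes passed (60 genes, 27 higher and 33 lower). That split over all genes depends on the scaling, since quantile normalization gave 36 higher among 60. In all, 29 members were higher in the late window and 5 lower, with a median difference of 0.25, while all tested genes had a median of -0.03 and 40.43% of them were higher. At an unadjusted p below 0.05, 21 members were higher, against 5.50% of all tested genes, and 0 were lower, against 13.64%.

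All 3 late arrays lay above all 3 early arrays for 22 of 34 members, against 8.96% of tested genes. The count was 4 of 4 measured genes of NADPH supply, 4 of 4 of acetyl-CoA supply, 5 of 5 of synthesis and 2 of 2 regulators. It was 2 of 4 for desaturation, 1 of 3 for elongation, 0 of 3 for acyl-CoA activation and 4 of 9 for triglyceride assembly. The order was turned only for Elovl1, whose late arrays all lay below its early arrays, against 15.0% of tested genes. Median differences by role were 0.46 for acetyl-CoA supply, 0.34 for the regulators, 0.33 for synthesis, 0.30 for NADPH supply, 0.17 for assembly and 0.14 for desaturation. They were -0.02 for elongation and -0.01 for acyl-CoA activation. No test compared the roles.

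**Figure D2:**
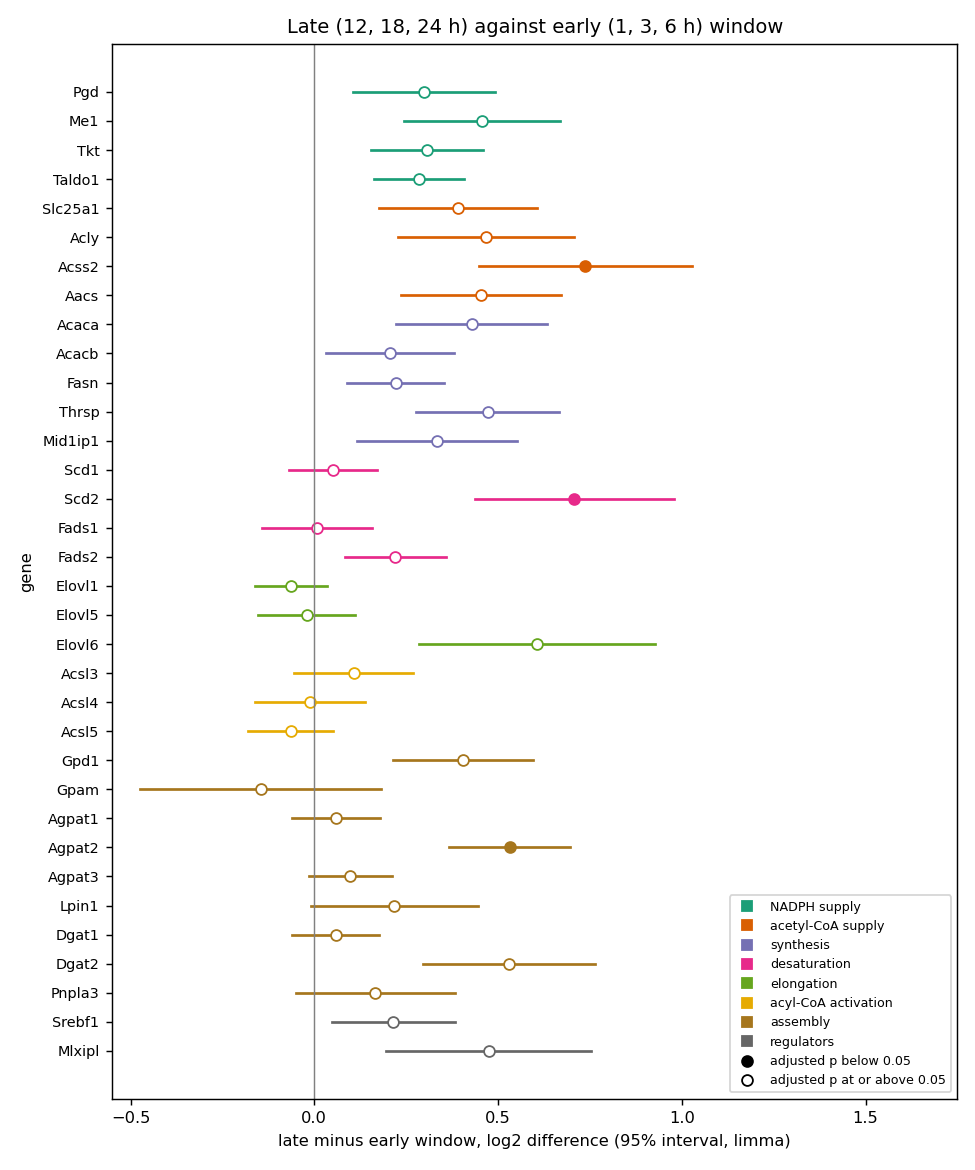
Late minus early window in log2 (horizontal axis) for the 34 members, coloured by role, with the 95% interval of the limma fit (n = 3 against 3). Filled points mark Acss2, Scd2 and Agpat2, which passed the test, and the intervals of 21 members lie wholly above 0.

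NADPH for the reductions comes from the pentose phosphate pathway and from malic enzyme. Me1, the cytosolic malic enzyme, read 13.27 and 13.00 in the vehicle arrays, 13.06, 12.77 and 12.99 at 1, 3 and 6 h, and 13.33, 13.35 and 13.52 at 12, 18 and 24 h. The late arrays were all above both vehicle arrays, and the 3 h array was the lowest. The difference between late and early window was 0.46 (SE 0.09, adjusted p = 0.0741 by limma). Tkt, the transketolase of the pentose phosphate pathway, read 13.31 and 13.16 in vehicle, 13.24, 13.03 and 13.21 in the early window and 13.40, 13.52 and 13.48 in the late window, a difference of 0.31 (SE 0.07, adjusted p = 0.0828 by limma). Its late arrays too were above every other array. Taldo1, the transaldolase of the same pathway, differed by 0.28 (SE 0.05, adjusted p = 0.0640 by limma), with its early arrays below both vehicle arrays, the 1 h array only just. Pgd, 6-phosphogluconate dehydrogenase, differed by 0.30 (adjusted p = 0.141 by limma), and its early arrays all lay between the vehicle arrays. G6pdx, also listed for NADPH supply, was not measured. Of 11 further tested genes of NADPH and precursor supply, all late arrays lay above all early arrays for 4. Idh1, H6pd, Pgls, Rpia, Rpe and Me2 were among the 7 whose windows overlapped.

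Acetyl-CoA supply held the member with the widest difference of all. Acss2, which makes acetyl-CoA from acetate in the cytosol and nucleus, read 12.00 and 11.57 in vehicle, 11.64, 11.25 and 11.31 in the early window, and 12.02, 12.11 and 12.29 in the late window. Its 3 and 6 h arrays were below both vehicle arrays and its late arrays above both, though the 12 h array passed vehicle 1 by only 0.02. The late window was higher by 0.74 (SE 0.13, adjusted p = 0.0440 by limma). Acly, the citrate lyase, read 13.41 and 13.06 in vehicle, 13.24, 12.88 and 13.01 in the early window, and 13.40, 13.58 and 13.55 in the late window. The early and late arrays did not overlap, but vehicle 1 lay among the late arrays and vehicle 2 among the early ones, and the difference of 0.47 (SE 0.11) had an adjusted p of 0.0847 by limma. Aacs, which activates acetoacetate, differed by 0.45 (adjusted p = 0.0786 by limma) and Slc25a1, the mitochondrial citrate carrier, by 0.39 (adjusted p = 0.106 by limma).

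Among the genes of chain synthesis, Thrsp (Spot 14), a lipogenic protein that works with Mid1ip1 on acetyl-CoA carboxylase, came nearest to the threshold. It read 13.26 and 13.03 in vehicle, 13.10, 12.86 and 12.82 in the early window, and 13.30, 13.47 and 13.42 in the late window. Every late array was above both vehicle arrays, and the 3 and 6 h arrays were below both. The difference was 0.47 (SE 0.09, adjusted p = 0.0561 by limma).

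Acaca, the cytosolic acetyl-CoA carboxylase that commits carbon to fatty acids, read 12.78 and 12.46 in vehicle, 12.57, 12.31 and 12.44 in the early window, and 12.81, 12.83 and 12.96 in the late window, a difference of 0.43 (SE 0.09, adjusted p = 0.0783 by limma). Fasn, the fatty acid synthase, spanned less: 13.79 and 13.71 in vehicle, 13.75, 13.54 and 13.64 in the early window, and 13.83, 13.91 and 13.86 in the late window. Its difference of 0.22 (SE 0.06, adjusted p = 0.122 by limma) came with late arrays that were all above every other array. Mid1ip1 differed by 0.33 (adjusted p = 0.144 by limma), its lowest array being the 3 h array at 0.49 below the vehicle mean. Acacb, the carboxylase of the mitochondrial surface, whose product restrains fatty acid oxidation, differed by 0.21 (adjusted p = 0.210 by limma) and its early arrays were all below both vehicle arrays, while its late arrays lay between them.

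The desaturases divided by isozyme. Scd2, a stearoyl-CoA desaturase, read 12.01 and 11.66 in vehicle, 11.72, 11.24 and 11.42 in the early window, and 12.13, 12.25 and 12.12 in the late window. It was lowest at 3 h, and all late arrays were above both vehicle arrays. The late window was higher by 0.71 (SE 0.12, adjusted p = 0.0414 by limma). Scd1, the main adipocyte stearoyl-CoA desaturase, read 14.17 and 14.20 in vehicle, 14.27, 14.11 and 14.25 in the early window, and 14.26, 14.30 and 14.21 in the late window. Its windows overlapped, and the difference of 0.05 had a 95% interval from -0.07 to 0.17. This Scd1 probe set had a mean intensity of 19116, near the highest value of the data (23591). Whether a ceiling narrowed its difference was not tested. A dimmer Scd1 probe set (mean intensity 11683) differed by 0.10, also with overlapping windows. Fads2, the delta-6 desaturase of polyunsaturated fatty acids, read 9.07 and 8.999 in vehicle, 9.08, 9.03 and 8.90 in the early window, and 9.21, 9.30 and 9.16 in the late window, a difference of 0.22 (SE 0.06, adjusted p = 0.136 by limma). Fads1, the delta-5 desaturase, differed by 0.01 (95% interval -0.14 to 0.16).

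Of the elongases, Elovl6 was the one with a wide difference. Elovl6, which lengthens palmitate to stearate, read 12.54 and 12.11 in vehicle, 12.21, 11.71 and 11.96 in the early window, and 12.39, 12.58 and 12.73 in the late window. The windows did not overlap and vehicle 1 lay within the late arrays. The difference was 0.61 (SE 0.14, adjusted p = 0.0928 by limma). Elovl1, which acts on very long saturated chains, read 10.63 and 10.58 in vehicle, 10.63, 10.59 and 10.70 in the early window, and 10.57, 10.59 and 10.57 in the late window, a difference of -0.06 (95% interval -0.16 to 0.04). Elovl5, which acts on polyunsaturated chains, differed by -0.02 (95% interval -0.15 to 0.11).

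Acyl-CoA synthetases, which activate free fatty acids, showed no difference beyond the spread. Acsl3, a synthetase of the endoplasmic reticulum and lipid droplet, read 7.89 and 7.81 in vehicle, 7.69, 7.96 and 7.76 in the early window, and 7.88, 7.96 and 7.90 in the late window (difference 0.11, 95% interval -0.05 to 0.27). Acsl5 read 10.53 and 10.48 in vehicle, 10.52, 10.55 and 10.54 in the early window, and 10.56, 10.47 and 10.39 in the late window (difference -0.06, 95% interval -0.18 to 0.05). For both, the early and late arrays overlapped. Acsl4, which prefers arachidonate, differed by -0.01 (95% interval -0.16 to 0.14). Acsl1, the main synthetase of adipocytes, is among the members not analysed here.

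In triglyceride assembly, Agpat2, the acylglycerophosphate acyltransferase whose loss causes lipodystrophy, had the smallest adjusted p of all members. It read 12.37 and 12.09 in vehicle, 12.03, 11.89 and 11.88 in the early window, and 12.50, 12.49 and 12.40 in the late window. Early arrays were all below both vehicle arrays and late arrays all above both. The late window was higher by 0.53 (SE 0.07, adjusted p = 0.0406 by limma). Dgat2, an acyltransferase of the last step, read 13.43 and 13.07 in vehicle, 13.17, 12.90 and 12.83 in the early window, and 13.44, 13.48 and 13.57 in the late window, a difference of 0.53 (SE 0.10, adjusted p = 0.0682 by limma). Its late arrays passed vehicle 1 by little, by 0.02 at 12 h. Gpd1, which makes glycerol 3-phosphate, differed by 0.40 (SE 0.08, adjusted p = 0.0744 by limma). The other isozymes differed less: 0.10 for Agpat3, 0.06 for Agpat1 and 0.06 for Dgat1, the other enzyme of the last step, each with a 95% interval that includes 0. Pnpla3, a lipid droplet protein known as a SREBP-1c target, differed by 0.17 (95% interval -0.05 to 0.38), and its 1 h array was above both vehicle arrays.

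A pair of assembly genes had time courses of their own, and are named here because of their values. Gpam, the mitochondrial enzyme of the first acylation, read 10.89 in both vehicle arrays, 10.93, 10.85 and 11.44 in the early window, and 11.16, 10.83 and 10.79 in the late window. Its 6 h array stood 0.55 above the vehicle mean, the only case of a member at least 0.3219 above both vehicle arrays (1.43% of tested genes at 6 h). Lpin1, a phosphatidate phosphatase, read 10.92 and 10.94 in vehicle, 10.82, 11.04 and 10.55 in the early window, and 11.00, 11.09 and 10.97 in the late window, with its lowest value on that same 6 h array. A limma fit with 7 group means has 1 residual degree of freedom and assumes that each lone E2 array varies as the vehicle arrays do. In that fit 0 members passed at 6 h against 0.366% of tested genes, and Gpam came nearest to passing.

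The transcription factor genes were in the group without overlap. Srebf1 read 10.99 and 10.74 in vehicle, 10.86, 10.65 and 10.66 in the early window, and 10.95, 10.92 and 10.96 in the late window (difference 0.21, SE 0.07, adjusted p = 0.188 by limma). No late array of Srebf1 passed vehicle 1. Mlxipl read 10.88 and 10.30 in vehicle, 10.51, 10.64 and 10.46 in the early window, and 10.93, 11.11 and 11.00 in the late window (difference 0.47, SE 0.12, adjusted p = 0.119 by limma). Its late arrays were above both vehicle arrays, which themselves lay 0.58 apart, the widest vehicle gap of any member.

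Ratios within an array describe how enzymes of a family stood to each other. For 6 pairs, chosen after the values were seen so that a member with a wide difference met a flatter one, the log2 ratio was higher on every late than on every early array. The choice of pairs fixes that direction, and no test is given. The late minus early difference of the ratio was 0.66 for Scd2 over Scd1, 0.63 and 0.67 for Elovl6 over Elovl5 and over Elovl1, 0.47 and 0.43 for Agpat2 over Agpat1 and over Agpat3, and 0.47 for Dgat2 over Dgat1. A ratio describes unequal values within a pair and does not show that the partner did not change.

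**Figure D3:**
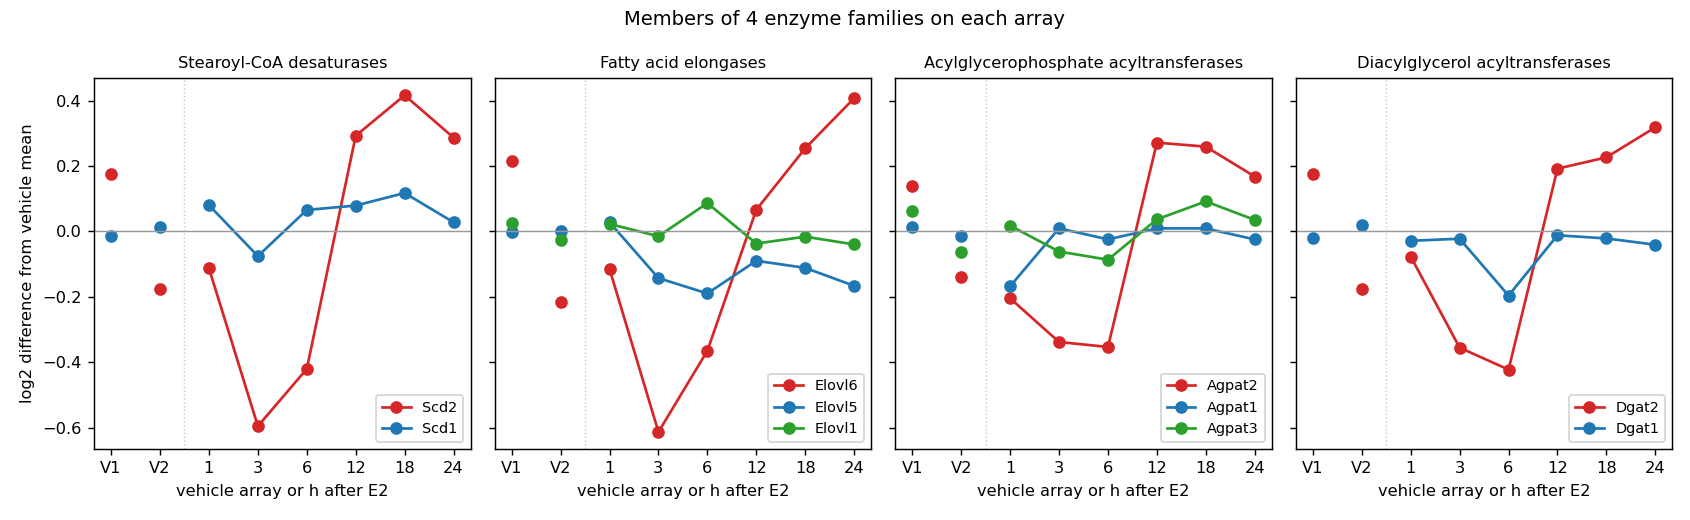
Log2 difference from the vehicle mean (vertical axis) on each array for the members of 4 enzyme families, with 1 array per point. Scd2, Elovl6, Agpat2 and Dgat2 (red) run from below 0 at 3 and 6 h to above 0 from 12 h, while the other isozymes (blue, green) stay between -0.20 and 0.12.

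Against vehicle, neither window gave a member that passed the test. In the early window 28 members were lower than vehicle and 6 higher, with a median of -0.12 (0.01 over all tested genes). By limma 0 members passed at an adjusted p below 0.05, as did 0% of all tested genes (smallest adjusted p of a member 0.589, for Agpat2). At an unadjusted p below 0.05 there were 8 lower members, against 1.74% of tested genes, and 0 higher, against 3.64%. These 8 were Acss2 and Aacs of acetyl-CoA supply, Acacb and Thrsp of synthesis, Scd2, Elovl6, Agpat2 and Dgat2. In the late window 26 members were higher than vehicle and 8 lower, with a median of 0.17 (-0.01 over all tested genes). Again 0 members passed, as did 0% of all tested genes (smallest adjusted p 0.634). At an unadjusted p below 0.05, 14 were higher, against 2.80% of tested genes, and 0 lower, against 4.8%. The comparisons share the vehicle arrays.

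Set against both vehicle arrays, single times gave the same order without a test, since each is 1 array. At 1 h 8 of 34 members lay below both vehicle arrays (22.1% of tested genes) and 6 above both (39.7%), so the count below both was near the background. At 3 h 24 lay below both (28.6% of tested genes) and at 6 h 26 (30.3%). Above both lay 21 members at 12 h (37.9% of tested genes), 24 at 18 h (27.2%) and 23 at 24 h (29.0%). Distances were small. At least 0.32 below both on the log2 scale lay Mid1ip1, Scd2 and Elovl6 at 3 h (0.760% of tested genes) and Lpin1 at 6 h (0.733%), and 0 members were at least 1.5-fold from both on any E2 array (1.47% of tested genes on at least 1).

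**Figure D4:**
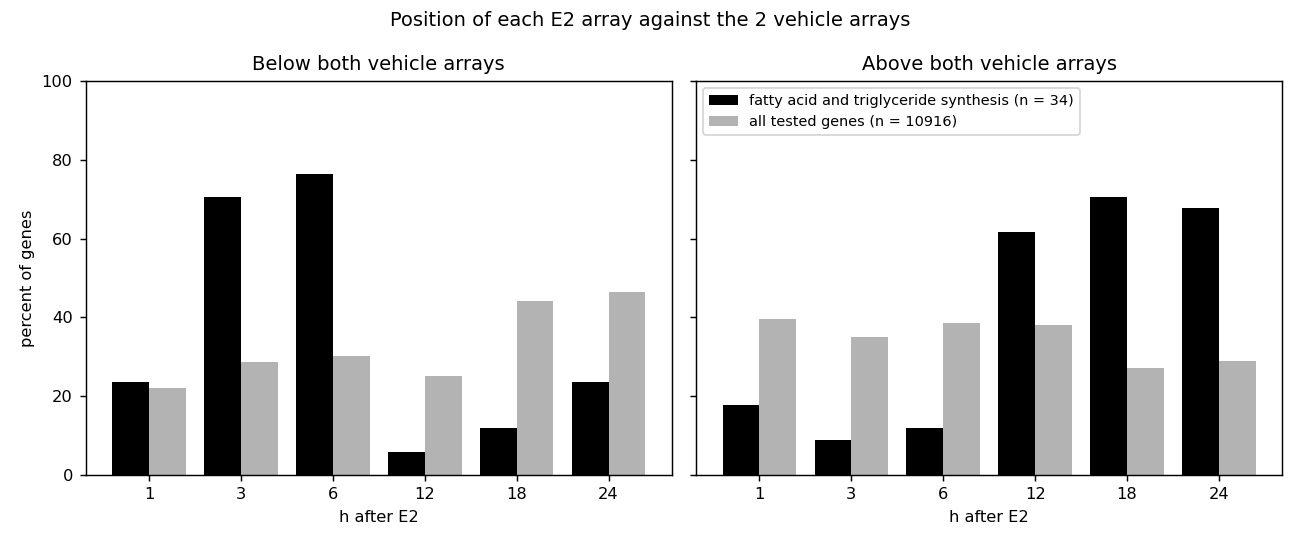
Percent of the 34 members (black) and of the 10916 tested genes (grey) that lay below both vehicle arrays (left) or above both (right) at each hour after E2, with 1 E2 array per bar. The black bars exceed the grey below both at 3 and 6 h and above both at 12, 18 and 24 h.

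The vehicle arrays themselves differed in these genes. Vehicle 1 exceeded vehicle 2 in 27 of 34 members, with a median of 0.16 (-0.01 over all tested genes, 47.75% of which were higher in vehicle 1). It did so in all 22 members whose late arrays all lay above their early arrays. Of these 22, 4 had every early array below both vehicle arrays and 16 had every late array above both. Over all 34 members these numbers were 5 below both (6.23% of tested genes) and 19 above both (11.1%). Without vehicle 1 the late median was 0.22 and without vehicle 2 it was 0.07, and the early median was -0.05 and -0.18.

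Markers of the cell types of the tissue moved in different ways, and in tissue RNA fewer cells of a type cannot be told apart from less RNA per cell. Of 16 adipocyte markers listed, 12 were tested, and Cfd, Plin1, Adrb3 and Tusc5 were not analysed. Adipoq (adiponectin) lay between 13.78 and 13.96 on all arrays, the lowest intensity was 307.8 (Acvr1c), and 0 of 12 markers were at 0. Below both vehicle arrays lay 7 of 12 at 3 h (28.6% of tested genes) and 6 at 6 h (30.3%). At 12, 18 and 24 h these numbers were 3, 2 and 7, and above both lay 2 at 3 h and 0 at 6 h. Their summed intensity ran from 79514 to 86607 in vehicle, 80711 to 88021 in the early window and 78978 to 86291 in the late window, so the groups overlapped. Their median late minus early difference was 0.04, with 8 of 12 higher and 0 passing the test. With the adipocyte marker mean as a covariate the same 3 members passed.

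Luminal epithelial markers were higher in the late window, as the members were. Of 15 tested, 13 were higher, with a median of 0.20, and Krt8, Cldn3 and Elf3 passed the test (late minus early 1.15, 0.46 and 0.32, each adjusted p = 0.0406 by limma). Their summed intensity was 11552 to 11697 in vehicle, 10556 to 11665 in the early window and 13646 to 15659 in the late window, with 0 markers at 0. With the luminal marker mean as a covariate 0 members and 4 of all tested genes passed, and the late minus early difference was 0.46 for Acss2, 0.25 for Agpat2 and 0.23 for Scd2 (median of all members 0.18). Early and late luminal sums did not overlap, so this covariate runs with the windows, and the fit cannot tell them apart. By array, the luminal median against the vehicle mean was 0.03, 0.02 and -0.07 at 1, 3 and 6 h and 0.22, 0.21 and 0.18 at 12, 18 and 24 h. At 6 h 9 of 15 luminal markers lay below both vehicle arrays, against 30.3% of tested genes. The list mean, used as the covariate, was -0.09 at 3 h and -0.14 at 6 h. Over the early window it was -0.07, and over the late window 0.25.

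Milk and secretory markers, a further epithelial list, were mostly higher in the late window gene by gene, but their summed intensity was higher only at 12 h. Of 12 listed, Csn2, Wap and Csn1s2a were below the level for testing, and 7 of the 9 tested were higher late than early, with a median of 0.20. Ltf (lactoferrin) passed the test, with a difference of 0.39 (SE 0.05, adjusted p = 0.0265 by limma). The list's median against the vehicle mean was 0.35 at 12 h, 0.24 at 18 h and 0.11 at 24 h. Its summed intensity was 11285 to 12352 in vehicle and 12213 to 12494 in the early window. At 12, 18 and 24 h the sum was 14529, 11940 and 11368, the last 2 below every early array. There were 0 markers at 0, and the part of this list in the result was not tested.

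Skeletal muscle markers varied widely between arrays. Their summed intensity was 12958 to 17037 in vehicle, 23655 to 35426 in the early window and 17567 to 28427 in the late window, over 17 markers with 0 at 0. With their mean as a covariate 18 members passed for late against early, the 3 above among them, in a fit in which 1079 of all tested genes (9.88%) passed. The late median against vehicle was 0.08 in that fit. Every E2 array had a higher muscle sum than both vehicle arrays. Against vehicle this covariate therefore runs with the groups, and the fit cannot tell them apart. B lymphocyte markers (8 tested, 0 at 0) had summed intensities of 10755 to 13044 in vehicle, 10777 to 12822 in the early window and 8697 to 12942 in the late window, and with the lymphocyte marker mean as a covariate 0 members passed, with a median of 0.23. Brown fat markers, 5 tested with 0 at 0, summed to 4133 to 5131 in vehicle, 5200 to 6074 in the early window and 4767 to 6243 in the late window, and their part in the result was not tested. Of 9 clock genes 0 passed for late against early by limma (at an unadjusted p below 0.05, Nr1d1 was higher and Npas2 lower), and the part of the time of day was not tested.

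**Figure D5:**
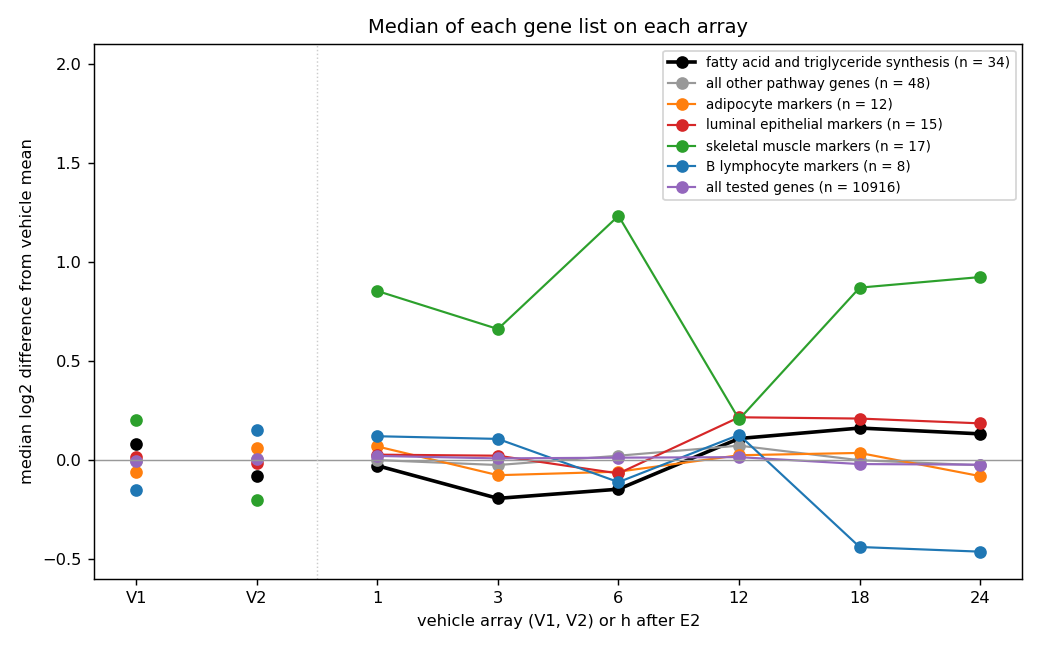
Median log2 difference from the vehicle mean (vertical axis) of each gene list on each array, with 1 array per position. The synthesis genes (black) run from -0.19 at 3 h to 0.16 at 18 h, the luminal markers (red) lie near 0.2 from 12 h, the adipocyte markers (orange) stay within 0.1 of 0, and the skeletal muscle markers (green) reach 1.23 at 6 h.

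Genes of the wider pathway were mixed in direction. Of 63 further genes of NADPH and precursor supply, elongation, fatty acid uptake, assembly and regulation, 48 were tested, and 27 were higher and 21 lower in the late than in the early window (median 0.03). By limma 0 passed at an adjusted p below 0.05, against 0.550% of all tested genes. At an unadjusted p below 0.05, 10 were higher (20.83%, against 5.50% of all tested genes) and 6 lower (12.5%, against 13.64%). All late arrays lay above all early arrays for 11 of the 48 (8.96% of all tested genes) and below them for 5 (15.0%). The 3 with the widest difference were Slc2a4, the insulin-responsive glucose transporter of fat and muscle, at 0.41 (SE 0.09, adjusted p = 0.0828 by limma), Slc25a10, the mitochondrial dicarboxylate carrier, at 0.36 (adjusted p = 0.117), and Insig1, which holds SREBP in the endoplasmic reticulum, at 0.36 (adjusted p = 0.145). Slc2a4 read 11.87 and 11.59 in vehicle, 11.68, 11.43 and 11.45 in the early window, and 11.81, 12.00 and 12.00 in the late window. Its windows did not overlap, and vehicle 1 lay among its late arrays.

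Other probe sets of the members gave the same directions in most cases. Above the level for testing, 23 members had 34 further probe sets, of which 32 had the direction of the brightest probe set for late against early. The 2 others belonged to Agpat1 and Fads1, whose differences were within 0.10 of 0 on both probe sets. The call of Acss2, Scd2 and Agpat2 rested on few arrays. Without the 3, 12, 18 or 24 h array 0 members passed, and of all tested genes 8, 13, 0 and 0 passed. Without the 6 h array Agpat2 alone passed (0.632% of tested genes). Without the 1 h array 13 members passed (2.13% of tested genes), and without either vehicle array 4 passed, the 3 and Mlxipl (0.339% of tested genes).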

How the data were processed

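Mammary gland RNA of 8 samples was hybridised as biotin-labelled cRNA to 1-colour Affymetrix arrays. The deposited intensities were on a linear scale. Array medians ran from 173.9 to 180.5, as close as after normalization between arrays, though that step is not described. GCOS 1.0 and RMA are named in the submitters' processing notes, without their role. Here log2 was taken with no further scaling, each gene was represented by its brightest probe set with 1 symbol in the platform annotation, and a gene was tested where its mean level reached the 40th percentile of all genes.

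limma 3.58.1 (R 4.3.3) was fitted to 3 means (vehicle, n = 2; early and late window, n = 3 each; 5 residual degrees of freedom) with a trended prior and two-sided p-values adjusted by Benjamini-Hochberg over 10916 genes. The script was tested on simulated data. The members and lists were chosen with earlier results of these data known. Values on every array were given for members that passed, the 2 per role with the widest late minus early difference, and 10 central genes. The number of arrays limits the precision. Other filters, scalings, probe set rules, covariates, time models and left-out arrays were tried, and the fit with 7 means and the isozyme ratios were added after the values were seen.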

Additional observations from a re-analysis of the deposited data

Results flagged for a closer look

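Acss2, Scd2 and Agpat2 are listed here because their levels differed between the early and the late window by a test of that difference, which does not tell the hormone, the injection and the time of day apart. The late minus early difference was 0.7376 for Acss2, 0.7075 for Scd2 and 0.5312 for Agpat2 on the log2 scale, with adjusted p of 0.0440, 0.0414 and 0.0406 by limma, and all 3 late arrays were above all 3 early arrays for each. Against vehicle, the early and late values were -0.38 and 0.35 for Acss2, -0.38 and 0.33 for Scd2, and -0.30 and 0.23 for Agpat2, and neither value passed the test alone.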

How the results depend on the processing

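Across the alternatives, 0 members passed against vehicle in either window. For late against early, the same 3 members passed without a level filter, with a filter at the 60th percentile, with quantile normalization, with median centring, without the trend and with the adipocyte covariate. Fewer or more passed in 7 settings: 1 (Agpat2) with the mean of all probe sets or the robust fit, 1 (Scd2) with 7 group means, 18 with the muscle covariate, and 0 with the luminal covariate, the lymphocyte covariate or a slope on log2 hours. Leaving out 1 array gave 0 to 13. Over all tested genes the count ran from 0 (without the 18 or the 24 h array) to 1079 (muscle covariate). The median member difference late against early was 0.1683 with the slope, scaled to the distance between the windows in log2 hours and fitted without the vehicle arrays. Against vehicle the late median was 0.0795 with the muscle and 0.0140 with the luminal covariate, and 0.0715 to 0.2243 with 1 array left out. Neither marker sum overlapped between vehicle and late arrays, so both covariate values cannot be read apart from the groups. Adjusted p ranged from 0.01053 to 0.5581 for Acss2, 0.0105 to 0.5537 for Agpat2 and 0.008112 to 0.7458 for Scd2.

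Single genes turned direction late against early as follows, and the cause was not tested. The luminal covariate runs with the windows, so turns with it cannot be read apart from them. With the luminal covariate the values were -0.1538 (Aacs), -0.0343 (Agpat3), -0.1553 (Dgat1), 0.0011 (Elovl1), -0.2673 (Fads1), -0.0337 (Fads2), 0.0593 (Gpam), -0.0122 (Lpin1), -0.3642 (Pnpla3), -0.0499 (Scd1) and -0.0720 (Srebf1), and against vehicle -0.0115 (Fads2) and -0.0469 (Scd2). With quantile normalization they were 0.0297 (Acsl4), 0.0015 (Acsl5) and 0.0301 (Elovl5), and with the mean of probe sets -0.0187 (Agpat1) and -0.0032 (Fads1). Fads1 was -0.0267 with the muscle covariate and -0.0416 with the slope, and with the lymphocyte covariate Acsl4 was 0.0203 and Elovl5 0.0171. Leaving out 1 array gave -0.0662 to 0.0600 for Acsl4, -0.0651 to 0.0437 for Elovl5, -0.0409 to 0.0490 for Fads1 and -0.2641 to 0.0358 for Gpam. At single times, the lower threshold of 0.3219 in log2 from both vehicle arrays gave 3 members at 3 h and 2 at 6 h. At the 1.5-fold threshold, vehicle 1 alone gave 3 members at 3 h and 3 at 6 h. Vehicle 2 alone at 1.5-fold gave 1, 2 and 3 at 12, 18 and 24 h. No paired analysis was possible because only the vehicle group has 2 arrays, so groups share fewer than 2 replicate numbers.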
